A study of Mus musculus with 45 samples.

Results

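When OCT4 was removed from mouse embryonic stem cells (mESCs), 1460 of 184964 accessible regions were more open after 2 h, while they were not similarly raised by removal of SOX2. These peaks, called members here, were chosen by their own readout. Counts per peak in the assay for transposase-accessible chromatin with sequencing (ATACseq) were scaled to a common library total outside the mitochondrial peaks (CPM). A member had an OCT4-FKBP 2 h mean of at least 4 CPM that stood at least 75% above the mean of the non-treated (NT) libraries, while its SOX2-FKBP 2 h mean was at most 25% above NT. The values at 2 h in both lines therefore describe the choice and are not a result. Of 57753 peaks with an OCT4-FKBP 2 h mean of at least 4 CPM (the pool), another 1204 met the OCT4 criteria but were left out by the SOX2 criterion. Those 1204 peaks serve as the nearest comparison.

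OCT4 is a POU-family transcription factor and SOX2 an HMG-box factor. They bind many enhancers of pluripotent cells together, at a SOX site placed next to a POU octamer, and help to keep that chromatin open. Loss of a pioneer factor is best known for closing such sites. Peaks that open within hours of its removal are a smaller class. NANOG is a homeodomain factor of the same network. In the embryo, cells without OCT4 turn to the trophectoderm, the lineage that forms the placenta.

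OCT4-FKBP cells (line V6.5) were measured at NT and after 2, 6 and 24 h of 500 nM dTAG-13, with 2 libraries each. SOX2-FKBP cells (line E14) had 2 libraries each at NT, 0.5, 1, 2, 6 and 24 h, and NANOG-FKBP cells (line E14) had 2 at NT and 3 each at 2, 6 and 24 h. In each line the named factor carried the FKBP degron, which dTAG-13 delivers to the proteasome. NT cells also carried the degron and received DMSO. All cells were grown without serum, with LIF and inhibitors of MEK and GSK3. The SOX2 and NANOG lines were made by knock-in and the OCT4 line came from another laboratory, so the factor and the line, with its strain, cannot be told apart in any difference between lines. Library totals outside the mitochondrial peaks ranged from 1498151 to 17191206 counts. The mitochondrial share ran from 1.42% to 17.6%, the highest being in treated NANOG-FKBP libraries. The study's methods describe duplicates and, for SOX2, another clone besides, without tying the clone to these libraries. The labels do not say that replicates came from separate cultures, so p-values measure the spread between these libraries only, which may be technical. Cell identity could not be checked against marker expression in accessibility data.

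Sequence is shown first, because it is a property that the choice did not use directly. A SOX pattern was more frequent in the members than in the comparison sets. A POU octamer was rare in the members and in the peaks left out. In the 300 bp around the peak summit, 191 of 1460 members (13.1%) held the SOX pattern CCATTGT on either strand. The share was 2.99% in the 1204 peaks left out by the SOX2 criterion, 4.85% in the pool and 5.05% in all peaks. None of these differences was tested, and the SOX2-FKBP ratio itself separates the members from the peaks left out. The POU octamer ATGCAAAT was found in 8 members (0.548%), against 0.166% of the peaks left out and 1.88% of the pool. For comparison, among peaks with an NT mean of at least 4 CPM in OCT4-FKBP, the octamer was present in 11.1% of the 6220 whose 2 h/NT ratio was 0.571 or less. The SOX sites below come from members with high OCT4-FKBP 2 h/NT ratios and at least 8 CPM at 2 h. They are shown 5′ to 3′ on the strand of the match, with the match in capitals (RefSeq sequence, mm10), to let the bases after the SOX site be compared.
Near Fam13c, chr10:70380301-70380329, minus strand: cattgctgtagCCATTGTgagccgtgcca
Near Grb7, in an Ikzf3 intron, chr11:98470243-98470271, plus strand: tttaatgcagaCCATTGTtcaactcgacg
Near 1110032F04Rik, chr3:68783736-68783764, minus strand: ggaagatttttCCATTGTgagagcacaaa
Near Mybph, in an Adora1 intron, chr1:134210578-134210606, minus strand: ctcttctttccCCATTGTcgtctctatca
Near Lao1, chr4:119026673-119026701, minus strand: aagaacaaattCCATTGTtgatgacaaac

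The share of peaks with the SOX pattern is given next by ranges of the SOX2-FKBP 2 h/NT ratio. This ratio was used in the choice, so the split is a description and supports nothing. Among peaks passing the OCT4 criteria, 24.8% of the 165 with a SOX2-FKBP 2 h/NT ratio up to 0.5 held it, then 19.1% of the next 288 peaks up to 0.75, 11.4% of 447 up to 1 and 7.86% of the 560 above 1. Beyond the SOX2 threshold the share was 3.10% of 935 peaks and 2.60% of 269. Pool peaks that did not pass the OCT4 criteria showed the same order at lower shares, with 18.6%, 11.2%, 4.40% and 2.67% in the first 4 ranges. In each of these ranges the share was higher in members than in other peaks of the same SOX2-FKBP ratio, a difference that was not tested. Promoter peaks, 7.67% of members and 29.2% of the pool, were not set apart in it. The 191 members with the pattern had a median SOX2-FKBP ratio to NT of 0.796 after 0.5 h, and of 0.75, 0.664 and 0.558 after 2, 6 and 24 h. The other 1269 members had 0.943, 0.942, 0.845 and 0.768. In OCT4-FKBP cells the peaks with the pattern had median ratios of 2.09 and 2.15 after 2 and 6 h.

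**Figure D1:**
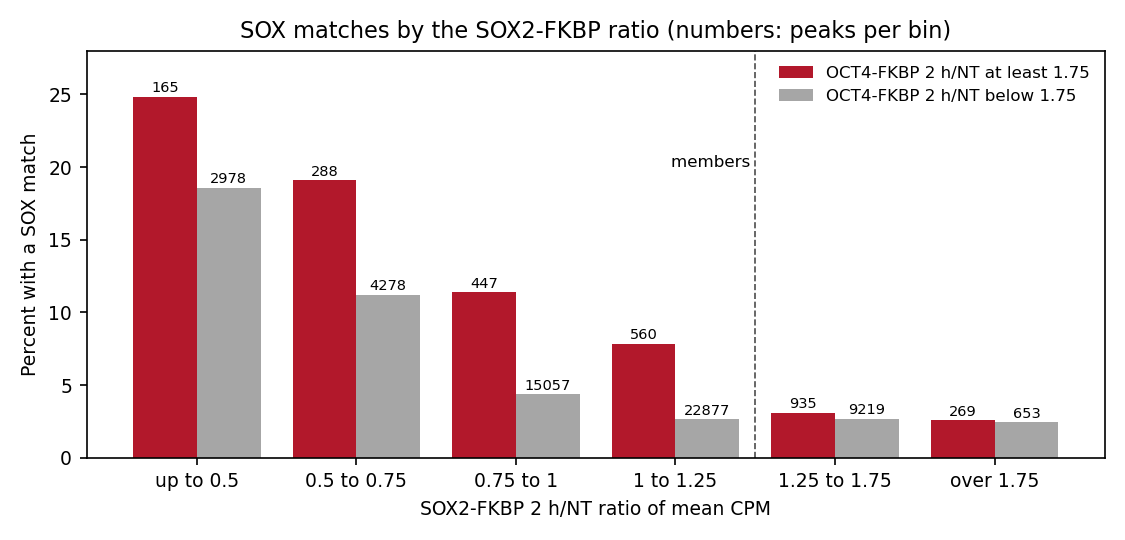
Percent of peaks with a SOX pattern within 300 bp of the summit (y axis) in ranges of the SOX2-FKBP 2 h/NT ratio of mean CPM (x axis), for peaks that pass the OCT4-FKBP criterion (red) and pool peaks that do not (grey). The number of peaks stands above each bar, and the red bars left of the dashed line are the members. The red bars fall from 24.8% to 7.86% across the members and stay near 3% beyond.

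Patterns of 2 other factor families were frequent both in the members and in the 1204 peaks left out. The TCF pattern CTTTGATC, bound by the WNT effectors TCF and LEF1, was found in 5.68% of members, 5.23% of the peaks left out and 1.65% of the pool. The ESRRB pattern TCAAGGTCA, read by the orphan nuclear receptors ESRRB and NR5A2, was found in 6.92%, 7.39% and 1.84%. Of the ESRRB matches in members, 49.0% lay in sequence that the reference marks as repeats, against 7.35% of SOX matches and 7.95% of TCF matches. Counting only ESRRB matches outside such repeats, 3.56% of members and 1.02% of the pool held one. The AP-1 pattern TGANTCA, bound by FOS and JUN dimers, was in 12.3% of members, 18.0% of the peaks left out and 8.44% of the pool. The KLF pattern GGGTGTGG stood at 8.97%, 10.7% and 6.95% in the same order. The GATA pattern AGATAA was in 11.6% of members, 9.55% of the peaks left out and 8.33% of the pool. The TEAD pattern GGAATG was in 19.6% of members against 17.3% of the pool, and in a higher share of the peaks left out. TFAP2 matches (GCCNNNGGC) were in 14.0% of members, below the pool (17.3%) and the peaks left out (18.8%) but above all peaks (11.9%). The direction for TFAP2 thus depended on the set compared, and promoter peaks were not set apart. The SP GC box (GGGGCGGGG) was in 2.47% of members, 3.16% of the peaks left out, 7.43% of the pool and 3.36% of all peaks. The CTCF pattern was in 0 members and 0.839% of the pool. A match is a run of letters and not evidence of binding, and SOX, TCF and octamer patterns of this length also occur by chance. Only 13 members held both SOX and TCF patterns. The TCF and ESRRB sites below show the variety, and the last 2 share the 20 bases from the start of the match, which lies in a marked repeat.
TCF near 1110032F04Rik, chr3:68783860-68783889, minus strand: aggaccctggcCTTTGATCacttgctgaca
TCF near Ihh, in an Nhej1 intron, chr1:74971788-74971817, minus strand: cagcattcttgCTTTGATCtctgtggctgc
ESRRB near Mad2l1, chr6:66516604-66516634, minus strand: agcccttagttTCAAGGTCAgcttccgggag
ESRRB near Pheta1, in a Cux2 intron, chr5:121882249-121882279, plus strand: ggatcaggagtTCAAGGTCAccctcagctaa
ESRRB near Ehd2, in a Bicra intron, chr7:15981883-15981913, plus strand: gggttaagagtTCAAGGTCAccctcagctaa

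**Figure D2:**
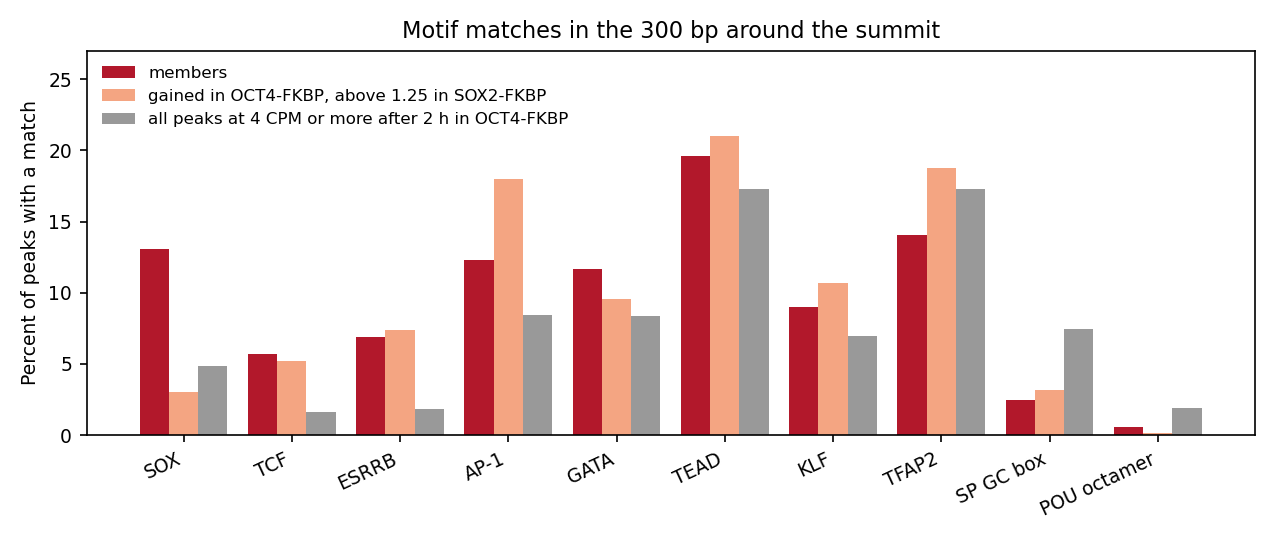
Percent of peaks (y axis) with at least 1 match of each pattern (x axis) in the 300 bp around the summit, for the 1460 members, the 1204 peaks left out by the SOX2 criterion, and the 57753 pool peaks. The SOX bar separates the members (13.1%) from the peaks left out (2.99%), while the TCF and ESRRB bars are raised in both.

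The members lay mostly away from promoters. Summits of 773 members (52.9%) were in introns and 580 (39.7%) between genes, with 45 in untranslated exons, 38 in non-coding exons and 24 in coding exons. Only 112 (7.67%) were within 500 bp of an annotated start, against 29.2% of the pool. The median distance to the nearest protein-coding start was 22842 bp, and 11210 bp in the pool. Members were narrower than the pool (median 852 against 1121 bp) and slightly lower in GC (52.0% against 54.3%). In these respects they were close to the 1204 peaks left out, whose promoter share was 8.39% and whose median distance was 18602 bp. The share of pool peaks that were members ran from 1.18% on chromosome X to 3.4% on chromosome 10, with 2.53% in all.

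At NT the member median was higher in SOX2-FKBP than in OCT4-FKBP cells, while the NANOG-FKBP libraries overlapped those of OCT4-FKBP. The median over members was 3.73 and 4.48 CPM in the OCT4-FKBP NT libraries, 8.37 and 8.36 CPM at 2 h, 7.76 and 9.35 CPM at 6 h, and 4.07 and 6.41 CPM at 24 h. The pool median stayed between 7.45 and 9.51 CPM in these 8 libraries. In SOX2-FKBP cells the member median was 6.52 and 6.51 CPM at NT and was below this in every treated library, down to 4.78 and 4.27 CPM at 24 h. In NANOG-FKBP cells the NT libraries themselves stood apart, at 5.99 and 4.13 CPM. The choice favours peaks with low OCT4-FKBP NT values, so this difference between lines at NT is a description. It also caps the SOX2-FKBP 2 h values against NT, so the lower treated values in SOX2-FKBP are partly set by the choice. The peaks left out by that cap had SOX2-FKBP medians of 6.52 and 6.19 CPM at NT and 10.1 and 9.90 CPM at 2 h.

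**Figure D3:**
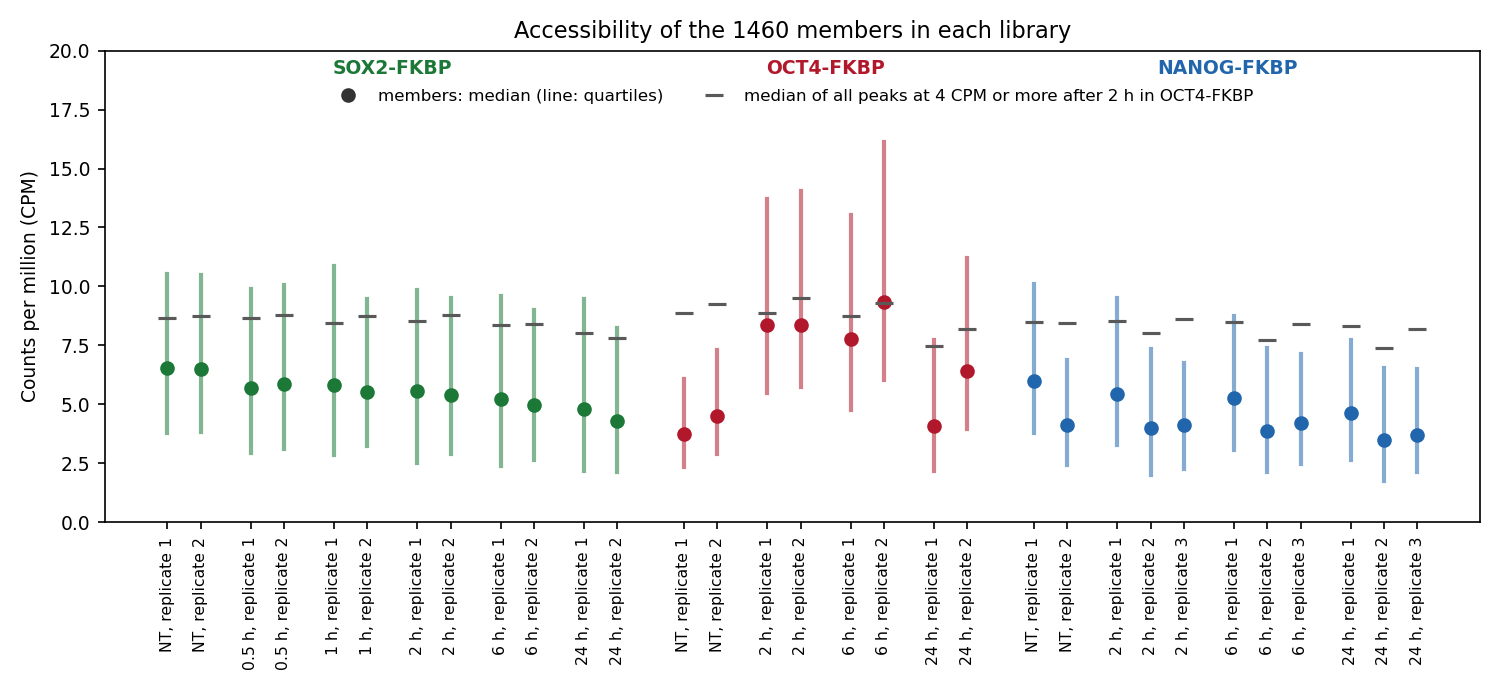
Median (point) and quartiles (line) of CPM over the 1460 members in each of 31 libraries, grouped by line and time on the x axis, with the pool median as a grey dash. The OCT4-FKBP medians stand at 8.36 and 8.37 CPM at 2 h against 3.73 and 4.48 CPM at NT, and the OCT4-FKBP 24 h libraries lie apart from each other at 4.07 and 6.41 CPM.

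At 6 h the gain was still present in most members, and by 24 h it had split. The values at 6 h and 24 h are set against the same NT libraries that chose the members, so these ratios are described and not tested. Members were classed as gained (at least 75% above NT), partly gained (25% to 75% above), near NT (from 0.8 times NT to 25% above) or below NT (under 0.8 times). The OCT4-FKBP 6 h/NT ratio had a median of 2.02, with 1003 members gained, 392 partly gained, 63 near NT and 2 below NT. The mean at 6 h exceeded that at 2 h in 727 members. At 24 h the median ratio was 1.20, and the 4 classes held 403, 287, 405 and 365 members. Of the 1003 members gained at 6 h, 391 were still gained at 24 h, 238 were partly gained, 246 were near NT and 128 were below NT. Of the 392 members partly gained at 6 h, 12 were gained at 24 h and 189 were below NT.

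Library values were set against the same NT libraries that chose the members, so they are not separate evidence from the ratios. The choice favours peaks with low NT values, which bears on all the member counts below. Both 2 h libraries lay above both NT libraries in 1390 members, where 18.7% of all peaks tested did so, a count that the choice itself sets. Both 6 h libraries lay above both NT libraries in 1224 members (83.8%), against 20.6% of all peaks. At 24 h the count was 534 members (36.6%), against 22.8% of all peaks. Both 24 h libraries lay below both NT libraries in 247 members (16.9%), against 34% of all peaks. The 1204 peaks left out had a similar course, with 77.9% gained at 6 h and 33.7% at 24 h.

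**Figure D4:**
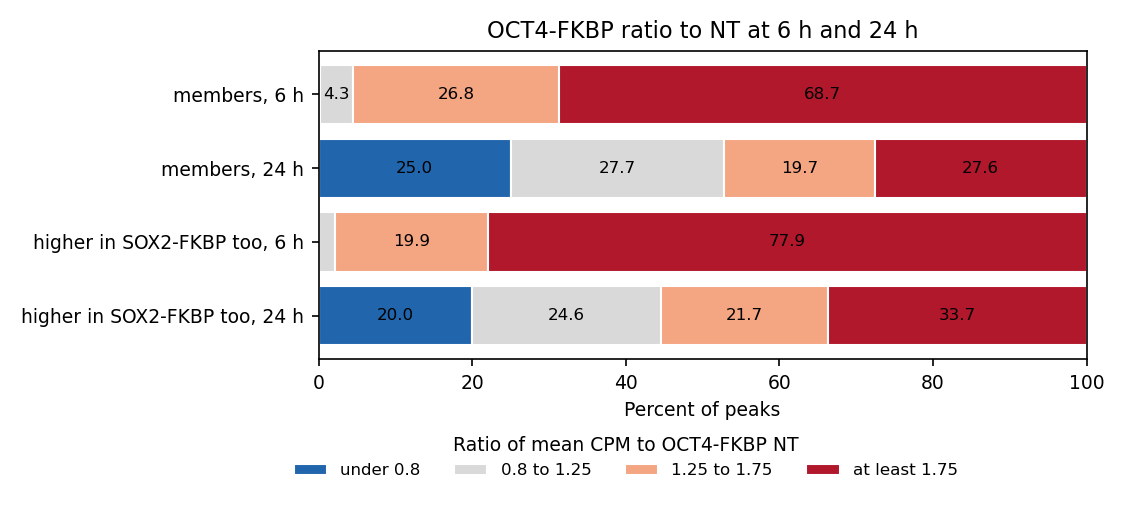
Percent of peaks (x axis) in classes of the OCT4-FKBP ratio of mean CPM to NT at 6 h and 24 h, for the 1460 members and the 1204 peaks left out by the SOX2 criterion. The gained class (dark red) holds 68.7% of members at 6 h and 27.6% at 24 h, and the class below NT (dark blue) holds 25% at 24 h.

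The change from 6 h to 24 h uses no library of the choice. It was examined over 166430 peaks by edgeR's quasi-likelihood test, with Benjamini-Hochberg adjustment and a threshold of 0.05. All 1460 members passed its count filter. In OCT4-FKBP, 485 members (33.2%) fell from 6 h to 24 h and 20 (1.37%) rose, against 4.49% of all peaks tested falling and 2.92% rising. Among pool peaks 11.3% fell. The median log2 change was -0.69 over members and -0.00 over all peaks, and 214 members had a positive value. The fall was not particular to the members, since 31.8% of the 1204 peaks left out also fell. With the replicate number as a block, 740 members fell and 56 rose. The 24 h libraries differed from each other. Without the first 24 h library 145 members fell and 7 rose, without the second 480 fell and 9 rose, and without the second 6 h library 280 fell and 4 rose. The 485 members that fell had a median 24 h/NT ratio of 0.701, and 289 of them were below NT, 156 near NT, 36 partly gained and 4 gained. The 20 that rose were all gained at 24 h, with a median 24 h/NT ratio of 4.86.

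In SOX2-FKBP few peaks of any kind were called between 6 h and 24 h. The median log2 change was -0.10 over members and -0.02 over all peaks. Of the members 2 rose (0.137%) and 1 fell (0.0685%), against 0.101% of all peaks called in either direction. An unadjusted p under 0.05 was found for 173 members. Those 3 members are named here because the count is small. The count was 0 when any one of the 4 libraries was left out and 0 with offsets for GC content, while it was 54 with the replicate block and 61 with the compared groups alone. A peak in a Stk10 intron, nearest to the start of Fbxw11, chr11:32601676-32602389, rose by 1.33 ± 0.29 (log2, SE; edgeR adjusted p = 0.0489). A peak 413390 bp from Zfp608, chr18:54576263-54577346, rose by 1.48 ± 0.33 (edgeR adjusted p = 0.0492). A peak in an intron of Spsb1, chr4:149944704-149945643, fell by 1.67 ± 0.37 (edgeR adjusted p = 0.0492). The difference of the 24 h against 6 h change between the 2 lines had a median of -0.58 over members and 0.02 over all peaks, with 422 members at an unadjusted p under 0.05. Only 4 members (0.274%) passed the adjusted threshold, all lower in OCT4-FKBP, against 0.024% of all peaks called. The 1203 peaks left out that were tested had a median of -0.51, and 6 of them (0.499%) passed, also lower in OCT4-FKBP. With the replicate block 217 members passed. Without the first OCT4-FKBP 24 h library or the second SOX2-FKBP 6 h library 0 passed, and with the GC offsets 1 did.

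**Figure D5:**
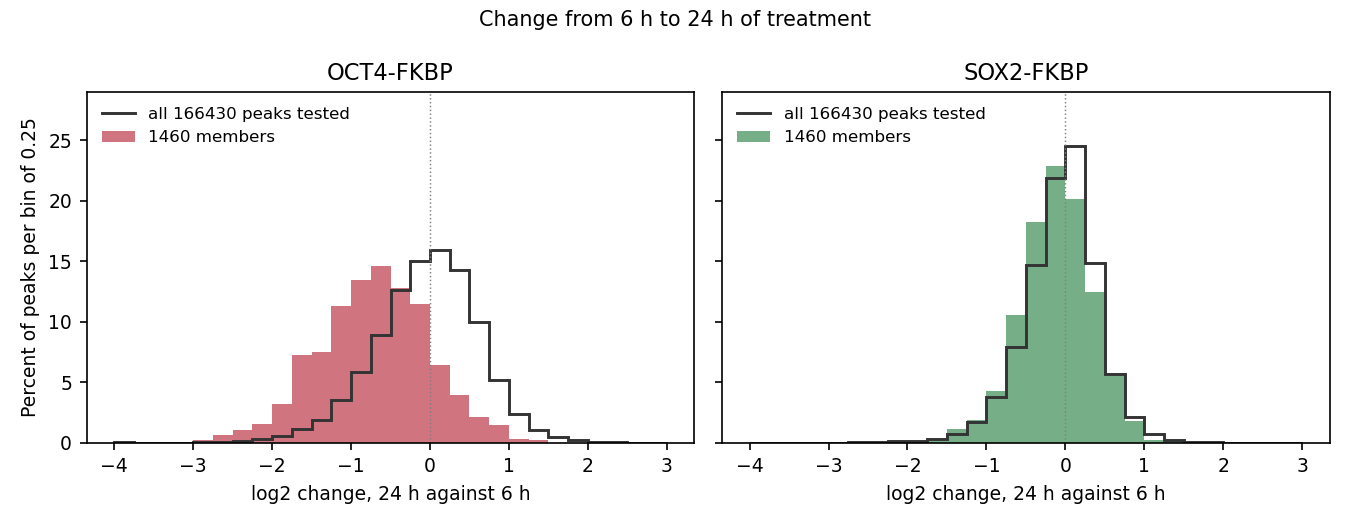
Distribution of the tested log2 change from 6 h to 24 h in OCT4-FKBP (left) and SOX2-FKBP (right), as percent of peaks per bin of 0.25 (y axis), for the 1460 members (bars) and all 166430 peaks tested (outline). Members are centred at -0.69 in OCT4-FKBP and at -0.10 in SOX2-FKBP.

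The 12 members with the highest OCT4-FKBP 2 h/NT ratio, among those with at least 8 CPM at 2 h and no overlap of the 2 h and NT libraries, show how far the later courses part. The highest lay in an intron of Mmp15, a membrane-type matrix metalloproteinase, at chr8:95358429-95359495. It had 4.48 and 3.66 CPM at NT, 22.1 and 15.2 CPM at 2 h, 36.4 and 30.1 CPM at 6 h, and 35.4 and 43.4 CPM at 24 h. Its values went on climbing after 2 h and its 24 h and 6 h libraries overlapped (log2 change 0.29 ± 0.23, SE, edgeR adjusted p = 0.50). In SOX2-FKBP it held between 4.76 and 9.39 CPM in all 12 libraries. Its summit window is shown for its strength, with the AP-1 match in capitals:
Mmp15, chr8:95358728-95359027, plus strand: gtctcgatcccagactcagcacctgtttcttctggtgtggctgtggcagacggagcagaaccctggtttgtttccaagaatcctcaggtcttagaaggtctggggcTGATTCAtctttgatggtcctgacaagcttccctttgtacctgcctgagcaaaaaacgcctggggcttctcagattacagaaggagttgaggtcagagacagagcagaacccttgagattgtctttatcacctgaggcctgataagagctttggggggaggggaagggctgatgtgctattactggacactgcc

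A peak 4768 bp from the start of Cdc6, a licensing factor of DNA replication, had its summit in an untranslated region of Wipf2 at chr11:98902449-98903215. It had 2.49 and 3.26 CPM at NT, 10.7 and 8.84 CPM at 2 h, 16.7 and 19 CPM at 6 h, and 27.2 and 29.7 CPM at 24 h. Every later time stood above the one before it in both libraries, although the last step missed the threshold (log2 change 0.73 ± 0.25, edgeR adjusted p = 0.065). A pair of neighbouring peaks upstream of Klhdc7a were also among the 12. The nearer, chr4:139977094-139978062, had 4.15 and 9.37 CPM at NT, 24.2 and 29.9 CPM at 2 h, 31.4 and 47.9 CPM at 6 h, and 17.1 and 28.4 CPM at 24 h. In SOX2-FKBP this peak went from 19.5 and 25.9 CPM at NT to 6.95 and 6.40 CPM at 24 h. An intronic peak of Agpat3, chr10:78325834-78326751, is a similar case, with 4.40 and 4.48 CPM at NT, 17.7 and 15.5 CPM at 2 h and 18.0 and 16.8 CPM at 24 h in OCT4-FKBP. In SOX2-FKBP it had 12.9 and 15.9 CPM at NT, 4.45 and 6.07 CPM at 1 h and 6.19 and 5.02 CPM at 24 h, with no overlap of the treated and NT libraries. 

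Other members of the 12 fell from 6 h to 24 h. The peak upstream of Hcrt, which encodes the hypocretin neuropeptides, at chr11:100764348-100764692 had 2.24 and 1.86 CPM at NT, 10.5 and 6.61 CPM at 2 h, 5.56 and 8.91 CPM at 6 h, and 1.22 and 0.986 CPM at 24 h. It fell by 2.61 ± 0.55 from 6 h to 24 h (log2, edgeR adjusted p = 0.0023). The intronic Tmem211 peak, chr5:113230208-113230584, had 2.24 and 2.50 CPM at NT, 12.8 and 7.35 CPM at 2 h, 13.3 and 17.1 CPM at 6 h, and 2.85 and 4.76 CPM at 24 h. It fell by 1.96 ± 0.43 (edgeR adjusted p = 0.0034). The peak 60470 bp upstream of Fam13c, which holds the first SOX site above and an AP-1 match, had 2.32 and 2.15 CPM at NT, 10.2 and 8.10 CPM at 2 h, 9.95 and 20.7 CPM at 6 h, and 5.15 and 3.45 CPM at 24 h. It fell by 1.73 ± 0.34 (edgeR adjusted p = 0.0011), and both 24 h libraries were still above both NT libraries. In SOX2-FKBP it had 3.99 and 5.08 CPM at NT and between 0.543 and 3.57 CPM in the 10 treated libraries. Peaks near Irs3, Rybp and Foxf1 also fell, with 24 h/NT ratios of 0.905, 1.05 and 0.959. The second Klhdc7a peak and a peak in Cables1 did not pass (edgeR adjusted p = 0.90 and 0.0503).

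The strongest falls from 6 h to 24 h went far below NT. The OCT4-FKBP 24 h libraries held 7379763 and 6087904 counts, against 16376074 and 15829517 at 6 h. The lowest 24 h values here therefore rest on few counts. In a St3gal3 intron near Artn, a neurotrophic factor gene, the peak chr4:117950212-117950660 had 3.65 and 5.12 CPM at NT, 6.75 and 10.2 CPM at 2 h, 4.52 and 11.2 CPM at 6 h, and 0.271 and 0.821 CPM at 24 h. It fell by 3.80 ± 0.53 (log2, edgeR adjusted p = 1.3e-05). The peak 6028 bp downstream of the start of Kiss1, the kisspeptin gene, fell by 3.45 ± 0.57 (edgeR adjusted p = 0.00015) and held a SOX match. In an intron of Ap2m1, a clathrin adaptor gene, 11.1 and 17.8 CPM at 6 h became 1.76 and 1.48 CPM, a fall of 3.06 ± 0.35 (edgeR adjusted p = 8.7e-07). Peaks near Cyth4 and Gatd1 fell by 2.99 ± 0.55 and 2.77 ± 0.33. All 5 ended with a 24 h/NT ratio between 0.125 and 0.335.

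The strongest rises were smaller. An intronic peak of Sh3rf1, chr8:61247286-61248274, had 2.49 and 2.91 CPM at NT, 4.99 and 5.19 CPM at 2 h, 7.33 and 9.10 CPM at 6 h, and 19.9 and 23.8 CPM at 24 h. It rose by 1.47 ± 0.23 (log2, edgeR adjusted p = 5.9e-05). Peaks near Hepacam, Lrrc3c, Ninj1 and Bcl11b rose by 1.37 ± 0.32, 1.28 ± 0.28, 1.26 ± 0.25 and 1.23 ± 0.29. The one assigned to Bcl11b, a zinc-finger repressor gene 244787 bp away, reached 25.7 and 16.4 CPM from 3.07 and 1.28 CPM at NT. The highest 24 h/NT ratio of any member with at least 8 CPM at 24 h, 10.2, belonged to a peak 35874 bp from Sox4, chr13:28917331-28918326. It had 1.41 and 1.7 CPM at NT, 8.51 and 5.60 CPM at 2 h, 9.89 and 8.40 CPM at 6 h, and 10.6 and 21.7 CPM at 24 h. In SOX2-FKBP this peak had 8.86 and 6.19 CPM at NT and 20.8 and 17.2 CPM at 24 h, with no overlap between them.

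The later course of members with and without a pattern is given as a description. The ratios to NT use the libraries that chose the members. The 83 members with a TCF match had a median 24 h/NT ratio of 1.58, and 35 (42.2%) were gained at 24 h. Members without one had 1.17 and 26.7%. For TFAP2 matches the medians were 1.35 and 1.15, and for TEAD matches 1.22 and 1.17. They were 1.15 and 1.20 for AP-1, and 1.17 and 1.20 for ESRRB. Of members with an ESRRB match, 45 of 101 (44.6%) fell from 6 h to 24 h, against 32.4% of those without. Those with a SOX match fell in 57 of 191 (29.8%), against 33.7%. With a TCF match 27 of 83 (32.5%) fell, against 33.3% without, so the TCF difference in the ratio was not seen in this change. The shares that fell with and without a match were 25.9% and 34.4% for TFAP2, 29.4% and 34.2% for TEAD, and 36.7% and 32.7% for AP-1. No difference between these subsets was tested.

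Of the members, 19 were nearest to a gene of 10 lists of pluripotency, lineage and signalling genes, and the shares of the lists lay on both sides of that of the pool. A nearest protein-coding start was shared out over 1211 genes, and 1026 of these had a single member. Of 247 pool peaks nearest to a naive pluripotency gene 4 were members (1.62%), where 2.53% of all pool peaks were members. The other counts were 2 of 149 for trophectoderm, 2 of 76 (2.63%) for primitive endoderm, 1 of 77 for formative epiblast, 3 of 51 (5.88%) for mesendoderm, 1 of 57 for neural ectoderm and 0 of 71 for WNT targets. They were 3 of 138 for AP-1 and immediate early genes, 1 of 104 for Hippo-YAP and 2 of 99 for epithelial junction genes. No difference from the pool was tested. With all annotated genes as candidates for the nearest start, the list members dropped from 19 to 9.

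The naive genes include Esrrb, the orphan nuclear receptor. Its intronic peak, chr12:86385801-86387223, holds an ESRRB match and had 5.47 and 8.90 CPM at NT, 13.5 and 17.9 CPM at 2 h, 10.9 and 19 CPM at 6 h, and 1.22 and 3.94 CPM at 24 h. It fell by 2.52 ± 0.43 from 6 h to 24 h (log2, edgeR adjusted p = 0.00019) and ended below both NT libraries. In SOX2-FKBP it had 17.2 and 12.7 CPM at NT and 6.30 and 4.80 CPM at 24 h. Peaks near Tfcp2l1, Nr5a2 and Klf5, which act in the same naive network, had 24 h/NT ratios of 1.70, 1.18 and 1.1, and none passed the 24 h against 6 h test (edgeR adjusted p = 0.50, 0.27 and 0.16).

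Among the other list genes, an intronic peak of the de novo DNA methyltransferase gene Dnmt3a, chr12:3889568-3890479, had 16.3 and 18.8 CPM at NT, 34.4 and 29.5 CPM at 2 h, 31.4 and 29.5 CPM at 6 h, and 7.59 and 11.5 CPM at 24 h. It fell by 1.64 ± 0.23 (log2, edgeR adjusted p = 1.5e-05). Intronic peaks of Wwtr1, the gene of the Hippo effector TAZ, and of Grhl3, an epithelial grainyhead factor, fell by 2.00 ± 0.35 (edgeR adjusted p = 0.00026) and 1.46 ± 0.29 (edgeR adjusted p = 0.0012). A short peak at Eomes, a T-box gene of trophectoderm and mesendoderm, had 3.81 and 5.70 CPM at NT, 11.8 and 12.1 CPM at 2 h, 6.41 and 10.9 CPM at 6 h, and 2.44 and 5.42 CPM at 24 h. It fell by 1.11 ± 0.34 (edgeR adjusted p = 0.038). These 4 and the Esrrb peak were the list members that fell. The other 14 did not pass in either direction. One of them, 101186 bp from Sox17, an endoderm factor gene, had 4.89 and 2.91 CPM at NT and 12.3 and 16.1 CPM at 24 h. Its SOX2-FKBP values were 7.69 and 7.93 CPM at NT and 3.26 and 4.38 CPM at 24 h. Peaks near Nodal and Evx1, both mesendoderm genes, had 24 h/NT ratios of 2.04 and 1.36, and those near T, Tfap2c, Maff, Dusp1, Fosl2, Pax3 and Sparc had ratios between 0.704 and 1.57. The peak 44178 bp upstream of Epcam had 3.65 and 2.38 CPM at NT and 7.77 and 4.38 CPM at 2 h in OCT4-FKBP, but at most 0.854 CPM in any SOX2-FKBP library and at most 0.529 CPM in any NANOG-FKBP library. For such a peak the SOX2 criterion carries little information. In all, 13 members had a SOX2-FKBP NT mean under 1 CPM.

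Of the 1211 nearest genes, 43 had 3 or more members. Whether this is more than peaks of the pool would give was not tested. Vegfa, the vascular growth factor gene, had 6 of its 12 pool peaks as members, at 15511 to 144565 bp downstream of its start. Their OCT4-FKBP 2 h/NT ratios were 2.08 to 3.77, and their 24 h/NT ratios 0.641 to 5.37. The farthest, chr17:45886040-45887423, had 3.73 and 4.65 CPM at NT, 15.2 and 11 CPM at 2 h, 15.5 and 19.7 CPM at 6 h, and 13.7 and 31.4 CPM at 24 h. Celsr1, a planar cell polarity cadherin, had 6 of 14, all within its introns, with 24 h/NT ratios of 0.926 to 2.95.

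Unc5b, a netrin receptor gene, had 5 of 14. One of these, chr10:60948579-60949660, had 7.55 and 10.1 CPM at NT, 31.4 and 23.4 CPM at 2 h, 21.8 and 36.1 CPM at 6 h, and 6.50 and 11 CPM at 24 h, and fell (edgeR adjusted p = 0.00016). Its neighbour at chr10:60952449-60952859 had 2.07 and 1.4 CPM at NT, 8.51 and 4.59 CPM at 2 h and 9.35 and 10.0 CPM at 24 h, and did not pass (edgeR adjusted p = 0.74). The 24 h/NT ratios of these neighbours were 0.991 and 5.58. Ddit4, a stress-induced inhibitor of mTORC1, had 4 of 13, among them its promoter peak, with 52.1 and 36.8 CPM at NT, 104 and 59.5 CPM at 2 h and 94.3 and 68.5 CPM at 24 h. At that promoter the 2 h and NT libraries did not overlap. Hes1, a Notch target, had 4 of 34 with 24 h/NT ratios between 1.38 and 1.43. The 3 members near Mcur1 had the highest median 24 h/NT ratio of these genes, 4.00, and one of them, chr13:43530973-43532016, is among the 8 members with an octamer. The 3 near Tpd52 had the lowest, 0.481. The 3 near Chac1, a gene of glutathione breakdown and the stress response, came from only 5 pool peaks and had a median of 0.912.

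After NANOG depletion few peaks rose, in the members or in all. Of the 1460 members 2, 6 and 5 (0.137%, 0.411% and 0.342%) rose at 2, 6 and 24 h. Of all 166430 peaks tested, 27, 61 and 479 rose at these times. As a share this was lower than in members at each time, a difference that rests on few members and was not tested. Libraries of this line took no part in the choice. At 2 h, 42 members fell (2.88%) and 2 rose, where 0.938% of all peaks fell. At 6 h, 79 fell (5.41%) and 6 rose, with 1.08% of all peaks falling. At 24 h, 182 fell (12.5%) and 5 rose, with 2.25% of all peaks and 3.24% of the pool falling. In the pool 1.21% fell at 2 h and 1.60% at 6 h. The peaks left out fell in 1.41%, 2.08% and 6.57% at 2, 6 and 24 h. The median log2 changes over members were -0.06, -0.08 and -0.28. These values turn on the first NT library. Without it 11, 21 and 53 members fell and the medians were 0.24, 0.22 and 0.046, so the direction of the members' median in NANOG-FKBP depends on that library. Without the third 24 h library 95 fell at 24 h, and without the first 2 h and the first 6 h library 21 and 29 fell at these times. Without the second 6 h library 52 fell, without the third 46 fell, and without the third 2 h library 25.

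Single members were lower in every treated NANOG-FKBP library. A peak between genes near Crygs, chr16:22799963-22801184, with a SOX match, had 21.9 and 23.6 CPM at NT and between 1.72 and 6.01 CPM in the 9 treated libraries. It fell by 2.52 ± 0.27 at 2 h (log2, edgeR adjusted p = 2.9e-07) and 3.14 ± 0.27 at 24 h (edgeR adjusted p = 5.8e-10). In OCT4-FKBP this peak had 14.5 and 16.1 CPM at NT, 31.7 and 27.9 CPM at 2 h and 6.10 and 8.71 CPM at 24 h. An intronic peak of Anks1, chr17:27993896-27995105, had 42.4 and 27.6 CPM at NT and between 4.76 and 12.6 CPM when treated, and fell by 2.72 ± 0.27 at 24 h (edgeR adjusted p = 1.3e-08). In OCT4-FKBP it went from 30.4 and 24.7 CPM at NT to 52.7 and 44.7 CPM at 2 h. Peaks near Srsf10, Siah3, Faim2 and Mdga1 fell by 2.48 ± 0.33, 2.86 ± 0.37, 2.64 ± 0.30 and 1.73 ± 0.22 at 24 h (edgeR adjusted p at most 3.5e-06). The peaks that rose at 2 h and 24 h, named for their small number, were near Nsd1 and Efhd2 at 2 h. At 24 h they were near Nsd1, Foxn2, Cd164l2, Suclg1 and Rabac1. Those that rose at 6 h are not named here. The Nsd1 peak, chr13:55205182-55206098, rose by 1.09 ± 0.28 at 2 h (edgeR adjusted p = 0.0445) and 1.44 ± 0.28 at 24 h (edgeR adjusted p = 0.00114).

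The thresholds cut through a continuous range. The 3 members just inside the OCT4-FKBP ratio had 1.7502, 1.7502 and 1.7503 (near Slc16a9, Mbtps2 and Lclat1), and the 3 peaks just outside had 1.7497, 1.7493 and 1.7492 (near Myl12b, Taf1c and Pgpep1l). Just inside the SOX2-FKBP ratio were 1.2489, 1.2486 and 1.2479 (near Wif1, Glrx5 and Nt5dc3), and just outside 1.2503, 1.2507 and 1.2511 (near Irf2bp2, Enc1 and Lrrc9). For the level the values were 4.0095, 4.0095 and 4.0133 CPM inside (near Nptx1, Hes1 and Nsf) and 3.9997, 3.9986 and 3.9948 CPM outside (near Pxylp1, Atp6v0e and Nxn).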

How the data were processed

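Tn5-tagmented DNA of mESCs was sequenced by the authors. Per the labels and the study's methods, the authors aligned reads to mm10 with BWA 0.7.17-r1188, kept a mapping quality of at least 10 with SAMtools 1.10 and removed duplicates with Picard 2.12.0. The deposited count table gives raw counts per peak for 31 libraries, which the study's methods describe as overlapping paired-end fragments. Of 45 samples, 14 were not analysed here. The deposited peak list gives each peak's summit, used here for windows. Its peak caller's enrichment and significance columns were not used.

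Members, gene lists and patterns were chosen with earlier results of these data known. CPM used totals without the 2 mitochondrial peaks. edgeR 4.0.16 (R 4.3.3) fitted one coefficient per line and time to 27 libraries, with TMM scaling, on peaks whose count exceeded 10 in over 6 libraries, and was tested on simulated data. SE is the change divided by the root of F. Patterns were searched on both strands in the mm10 reference. The nearest protein-coding start came from GENCODE M21. CPM intervals were not computed, and the number of libraries limits the precision.

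Named peaks were the 12 with the highest 2 h ratio at 8 CPM or more, the 5 extremes of each direction of the 24 h against 6 h change, members nearest to list genes, the 5 lowest adjusted p per NANOG-FKBP time and for the line difference, threshold neighbours, the 5 highest 24 h ratios, and genes with 3 or more members. Same-numbered OCT4-FKBP libraries deviated together (correlations 0.142 to 0.352 over 6 pairs of conditions), so the blocked values stand beside those results. SOX2-FKBP (0.0818 to 0.182) and NANOG-FKBP (0.0422 to 0.207) did not meet the limit of 0.1 in every pair. Alternatives were DESeq2 1.42.0, its size factors, total counts, 2 other count filters, the compared groups alone, a replicate block, each library left out, GC offsets in 25 bins, and other forms of the member rule.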

Additional observations from a re-analysis of the deposited data

Results flagged for a closer look

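The change from 6 h to 24 h differed between OCT4-FKBP and SOX2-FKBP in 4 members by the interaction term of the edgeR fit. The difference of log2 changes was -2.73 for a peak at the start of Klk1, -2.26 for an intronic peak of Aldh1l1, -2.05 for an intronic peak of Ptprg and -1.84 for a peak near Slc25a1, with edgeR adjusted p of 0.0012, 0.018, 0.046 and 0.046. The Klk1 peak, chr7:44224848-44225835, had 29.3 and 25.6 CPM at 2 h, 17.4 and 19.1 CPM at 6 h and 2.44 and 4.93 CPM at 24 h in OCT4-FKBP, while SOX2-FKBP had 12.8 and 9.17 CPM at 6 h and 16.5 and 12.8 CPM at 24 h. The Slc25a1 peak had 9.59 and 10.4 CPM at 6 h and 3.25 and 2.63 CPM at 24 h in OCT4-FKBP, against 26.9 and 21.3 CPM and then 28.3 and 24.3 CPM in SOX2-FKBP. The count of 4 members was 0 without the first OCT4-FKBP 24 h library or the second SOX2-FKBP 6 h library, 1 with GC offsets and 217 with the replicate block. Such differences were not particular to the members. Of the 1203 peaks left out that were tested, 6 (0.499%) passed, against 0.274% of members. Factor and line cannot be told apart in these differences.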

How the results depend on the processing

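The number of members was 1390 when both 2 h libraries had to exceed both NT libraries, 1778 under TMM scaling, 736 at a ratio of at least 2, and 2168 with GC offsets, of which 1307 were members (89.5% of the members and 60.3% of that set). The 2 h minus NT median rose with GC content, from -0.36 to 0.11 (log2) between the outer bins. Of the 485 members that fell in OCT4-FKBP, 369 also fell by DESeq2 and 378 with GC offsets, and none changed sign in any alternative. A filter of at least 10 counts in every library left 164 of the 485 to test, which all fell, and gave 188 falling and 1 rising in all. The count that rose was 9 under total counts and 7 with the compared groups alone. The replicate block gave 740 falling and 56 rising. Leaving out each library gave 145 to 480 falling and 4 to 14 rising.

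For SOX2-FKBP the calls were 1 with total counts or the strict filter, 0 with GC offsets, 61 with the groups alone, 54 with the block and 0 to 0 without each library. For the line difference they were 15 by DESeq2, 2 with its size factors, 2 with no filter, 10 with the strict filter, 1 with GC offsets, 9 with the groups alone, 217 with the block and 0 to 7 without each library. In NANOG-FKBP the falling members at 2, 6 and 24 h were 4, 4 and 26 with the strict filter, 125, 163 and 276 with the block, and 11 to 48, 21 to 80 and 53 to 195 without each library. At 6 h, 52 fell without the treated libraries numbered 2. The NANOG-FKBP median was 0.081 and 0.048 at 2 and 6 h with the strict filter, and without each library it ran from -0.35 to 0.24 at 2 h, -0.31 to 0.22 at 6 h and -0.50 to 0.046 at 24 h, with 0.03 at 2 h without the third 2 h library. The causes were not tested, except that the strict filter tests fewer members. In a 200 bp window, 10.1% of members held a SOX and 5.27% an ESRRB match. List genes were nearest to 9 members when all annotated genes counted. The OCT4-FKBP change from 6 h to 24 h was varied for the 5 strongest falls, the 5 strongest rises and the line-difference peaks. Of these 157 values, 157 kept their direction and 9 missed the threshold. Values of the other named peaks were not varied in this way. Depth limits members with few counts: the lowest library, of treated NANOG-FKBP cells, held 1498151 counts. Alternatives with GC offsets, and without the treated NANOG-FKBP libraries numbered 2, were chosen after seeing the data.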
